A study of Mus musculus with 14 samples.

Results

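PRDM16 binding was mapped in whole ventricles of mouse embryos at embryonic day 13.5 (E13.5), in wild-type (WT) hearts and in hearts of a conditional Prdm16 knockout (Prdm16cKO). The method was ChIP-seq (sequencing of immunoprecipitated chromatin), in which an antibody pulls down DNA bound by a protein and a peak is a stretch with more sequenced fragments than the background. All mice were C57BL/6, the atria had been removed, and each library pooled 3 hearts of a single genotype. WT hearts (labelled Mock for genetic manipulation) gave 2 PRDM16 libraries and the knockout gave 1, out of 14 samples in the series. Both genotypes were used with the PRDM16 antibody, and the knockout served to test its specificity. The Cre line and the deleted exons were not given in the sources used here, so the cells that kept PRDM16 in the knockout hearts are unknown. The members are the 17917 peaks of both deposited lists, 17587 from WT and 330 from the knockout. A WT peak was called shared where 1 bp or more of it lay in a knockout peak and WT only where it did not. The remaining knockout peaks were called knockout only. This gave 17390 WT-only peaks and 197 shared WT peaks (1.12% of the WT list). In the knockout list 215 peaks were shared (65.2%) and 115 were knockout only (34.8%, 95% Wilson interval 29.9 to 40.1%). Intervals here cover counting error only. Each genotype has a single list, so the classes are described and not tested. Depths of the whole-ventricle libraries were not analysed here.

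PRDM16 is a zinc-finger transcription factor with a PR domain that recruits corepressors and coactivators to DNA. It is known for keeping brown fat cells distinct from muscle, and in the developing heart it marks the compact myocardium, the dense outer muscle wall of the ventricles. In a specificity control, DNA pulled down from tissue that lacks the protein shows where signal arises without it. Regions near centromeres and in repeats are known for high read counts in many ChIP-seq and input libraries.

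Promoter sequences of 8 genes are shown because a WT peak covered part of the 250 bases before their listed start: 1 peak that was shared (Hspb7) and the strongest WT-only peaks at 7 genes of the gene lists described below. Sequences and starts are from RefSeq (build GRCm38.p6), read 5′ to 3′ on the gene's strand. Capitals mark exact matches on either strand to 4 motif cores: AGATAA or TTATCT for GATA factors, GGAATG or CATTCC for TEAD factors, AGGTGT or ACACCT for T-box factors and TAAAAATA or TATTTTTA for MEF2. No 2 of the marked matches overlapped.
The promoter under a shared WT peak is that of Hspb7, a small heat shock protein of heart muscle (chr4:141420529-141420778, plus strand). The knockout partner of that peak, at 141421793 to 141421974, lay outside this window.
Hspb7: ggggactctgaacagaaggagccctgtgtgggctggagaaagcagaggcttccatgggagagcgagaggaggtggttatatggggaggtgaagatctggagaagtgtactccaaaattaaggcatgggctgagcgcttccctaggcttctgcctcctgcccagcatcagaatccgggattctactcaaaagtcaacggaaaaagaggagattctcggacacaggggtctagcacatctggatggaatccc
The WT-only promoters are those of Cacna1c, the pore of the L-type calcium channel (chr6:119196410-119196659, minus strand), Myl2, the ventricular myosin light chain (chr5:122092939-122093188, plus strand), and Ankrd1, a stretch-responsive partner of titin (chr19:36119845-36120094, minus strand).
Cacna1c: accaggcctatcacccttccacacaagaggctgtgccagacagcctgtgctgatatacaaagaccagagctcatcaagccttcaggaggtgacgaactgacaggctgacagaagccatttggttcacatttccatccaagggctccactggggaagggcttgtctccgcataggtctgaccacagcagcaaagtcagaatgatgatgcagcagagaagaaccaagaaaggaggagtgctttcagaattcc
Myl2: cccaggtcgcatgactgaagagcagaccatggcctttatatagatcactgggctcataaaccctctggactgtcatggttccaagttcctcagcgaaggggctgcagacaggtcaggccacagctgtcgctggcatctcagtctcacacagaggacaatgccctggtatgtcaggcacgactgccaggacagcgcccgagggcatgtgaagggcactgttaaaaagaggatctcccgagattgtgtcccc
Ankrd1: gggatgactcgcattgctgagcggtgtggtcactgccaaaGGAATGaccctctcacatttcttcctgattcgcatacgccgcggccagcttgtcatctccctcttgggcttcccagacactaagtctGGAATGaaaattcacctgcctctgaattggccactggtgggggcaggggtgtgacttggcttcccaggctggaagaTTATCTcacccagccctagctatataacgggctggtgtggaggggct
They are followed by Des, the muscle intermediate filament (chr1:75360042-75360291, plus strand), Actc1, cardiac actin (chr2:114052876-114053125, minus strand), Slc8a1, the sodium-calcium exchanger (chr17:81738388-81738637, minus strand), and Tnnt2, cardiac troponin T (chr1:135836084-135836333, plus strand).
Des: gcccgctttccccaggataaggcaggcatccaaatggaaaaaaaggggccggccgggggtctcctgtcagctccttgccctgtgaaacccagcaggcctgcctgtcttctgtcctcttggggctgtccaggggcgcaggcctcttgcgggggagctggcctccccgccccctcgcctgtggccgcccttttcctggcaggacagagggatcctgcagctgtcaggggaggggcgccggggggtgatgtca
Actc1: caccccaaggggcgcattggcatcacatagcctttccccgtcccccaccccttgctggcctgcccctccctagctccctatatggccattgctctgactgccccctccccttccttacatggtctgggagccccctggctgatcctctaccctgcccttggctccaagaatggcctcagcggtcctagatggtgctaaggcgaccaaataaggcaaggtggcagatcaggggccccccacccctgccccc
Slc8a1: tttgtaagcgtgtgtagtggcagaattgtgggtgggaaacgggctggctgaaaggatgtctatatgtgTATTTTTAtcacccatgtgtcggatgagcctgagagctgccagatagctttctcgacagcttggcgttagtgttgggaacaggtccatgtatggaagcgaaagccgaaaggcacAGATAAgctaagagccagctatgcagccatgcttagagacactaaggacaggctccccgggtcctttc
Tnnt2: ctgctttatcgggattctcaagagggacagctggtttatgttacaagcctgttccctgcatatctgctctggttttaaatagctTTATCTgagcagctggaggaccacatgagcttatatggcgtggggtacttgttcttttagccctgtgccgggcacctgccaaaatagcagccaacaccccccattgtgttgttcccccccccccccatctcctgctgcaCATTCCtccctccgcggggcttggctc
Ankrd1 held 2 TEAD cores and 1 GATA core, the latter 47 to 42 bases before the start. Slc8a1 held a GATA core at 68 to 63 bases and a MEF2 core at 182 to 175 bases before the start, and Tnnt2 held a GATA core at 166 to 161 and a TEAD core at 27 to 22. The Hspb7, Cacna1c, Myl2, Des and Actc1 windows held none of these letters.

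Promoter windows of 300 bases (250 before to 50 after a start) overlapped a WT-only peak at 2153 of 32851 starts (6.55%), a shared peak at 5 and a knockout-only peak at 0. A GATA core was present in 7.48% of the windows with a WT-only peak, against 11.2% of all windows. A TEAD core was present in 15.3% against 14.7%, a T-box core in 9.38% against 13.7% and a MEF2 core in 2.42% against 2.72%. Windows under WT-only peaks were richer in G and C, with a median of 62.0% against 52.7%. In the 42 windows under a WT-only peak of at least 10-fold enrichment, whose median G and C content was 55.0%, the shares were 23.8% for GATA, 26.2% for TEAD, 4.76% for T-box and 9.52% for MEF2. A match of letters describes the sequence and shows no binding of the factor. Of the 5 windows with a shared peak, 2 belong to protein-coding genes, Hspb7 and Gm20594.

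Prdm16 itself was the nearest gene of 18 WT peaks, and all 18 were WT only, as were 98.9% of all WT peaks. Their fold enrichment ranged from 2.87 to 25.7 with a median of 4.89. The nearest of the 330 knockout peaks lay 1176885 bp from the closest of them. Knockout peaks were sparse, with 22 on the whole of chromosome 4, and this distance was not compared with that of other WT peaks. The strongest of the 18, inside the gene on chromosome 4 at 154392913 to 154394483, held 320 and 108 reads in the left ventricle (LV) libraries and 251 and 185 in the right ventricle (RV) libraries. These LV and RV libraries are 4 further WT libraries from C57BL/6 embryos of the same age, each from 10 to 12 pooled ventricles. They did not enter the classes and have values at the WT peaks alone, in the authors' deposited table of LV against RV. Their reads were worked out from that table. The libraries of a ventricle are called A and B here, since the table does not say which is which replicate.

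WT-only peaks had a median fold enrichment of 4.01 (quartiles 3.39 and 5.07) and a median width of 298 bp. The strongest lay in or near Alk, a receptor tyrosine kinase (32.4), Ndufs6, a subunit of respiratory complex I (28.7), Rbm39, a splicing factor (26.1), Josd2, a deubiquitinase (26.1), Prdm16 (25.7), Zfp36l1, an mRNA decay factor (25.7), Ryr2, the ryanodine receptor of heart muscle (25.2), and Ccny, a cyclin (23.6). Reads at the Alk peak numbered 163 and 77 in LV and 112 and 107 in RV. At the Rbm39 peak, on chromosome 2 at 156180191 to 156180832 and 243 bp outside the gene, they numbered 124 and 52 in LV and 127 and 117 in RV. All 4 WT libraries that the classes did not use thus carried reads at both. LV library B had the fewest unscaled reads at each, as it did over all WT peaks (184244).

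Shared WT peaks fell into 2 ranges of fold enrichment, split here at 3-fold, a limit set after the values were seen. In the lower range 149 peaks were below 3-fold, with a median of 1.76. In the upper range 48 peaks were at 3-fold or more, with a median of 7.75 and a maximum of 32.9. Among all WT peaks, 152 were below 2-fold, and 138 of these (90.8%, 85.1 to 94.4%) were shared. Between 3 and 4-fold 1 of 6815 was shared (0.0147%), and from 5 to 7-fold 18 of 2917 (0.617%). At 15-fold or more 7 of 111 were shared (6.31%, 3.09 to 12.4%). The share was thus highest at the lowest fold, near 0 at the middle of the range and higher again among the strongest peaks, beside 1.12% over the whole list. In 10 of the shared peaks the fold was the same value, 1.82, with the same −log10 q of 19.3, at widths from 414 to 3299 bp. No WT-only peak had that pair of values.

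Shared peaks of low fold held many reads in the LV and RV libraries. In the authors' deposited table their median was 178 normalized reads in LV and 161 in RV, against 8.26 and 8.26 at WT-only peaks and 28.8 and 24.1 at shared peaks of at least 3-fold. The lowest LV value among the 149 was 24.9. The 14 WT-only peaks below 2-fold also had high values, with medians of 76.2 in LV and 78.5 in RV. Between 2 and 3-fold the values were lower and differed by class, with a median mean of LV and RV of 62.6 at the 11 shared peaks and 6.55 at the WT-only peaks. Below 2-fold, high values thus came with and without an overlapping knockout peak. From 2 to 3-fold WT-only peaks had low ones, as the plot of fold against reads shows. Reads of the inputs were not analysed here, so the background behind each fold is not known.

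**Figure D1:**
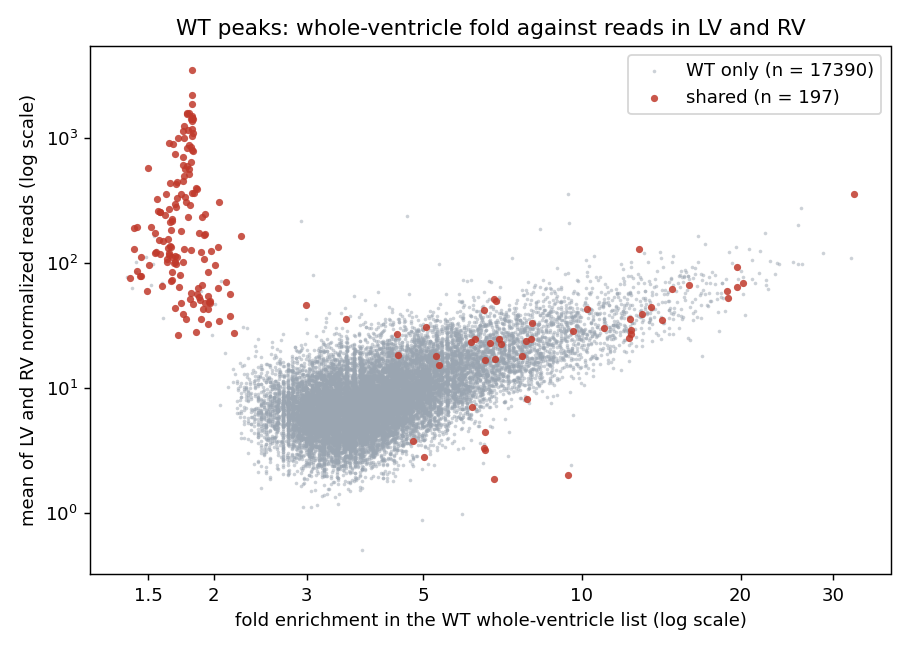
Each point is a WT peak, with fold enrichment in the whole-ventricle WT list on the x axis and the mean of the authors' LV and RV normalized reads on the y axis (both log scales). The 197 shared peaks (red) form a group below 3-fold with high reads and a second group of 48 within the cloud of the 17390 WT-only peaks (grey).

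Reads at most low-fold shared peaks also varied less between the 4 libraries than at WT-only peaks. LV library A held 1.79 times the reads of LV library B over all WT peaks. At peaks with a mean of at least 20 reads per library, this ratio had a median of 2.33 at 2279 WT-only peaks (quartiles 1.86 and 2.94). The median was 1.12 at the 149 low-fold shared peaks (1.03 and 1.27) and 1.66 at 33 shared peaks of at least 3-fold (1.61 and 2.07). The highest library exceeded the lowest by more than 2 times at 5 of the 149 low-fold shared peaks (near or in Chrm3, Filip1l, Myl12b, Obi1 and Sspn). It did so at 15 of the 33 shared peaks of at least 3-fold (45.5%) and at 1769 of the 2279 WT-only peaks (77.6%). A peak near Col19a1, a collagen gene, named after its values were seen, shows such even unscaled reads (chromosome 1 at 24611546 to 24612582). It held 1061 and 1069 reads in LV and 1071 and 1089 in RV over 1037 bp. Low-fold shared peaks held a median of 0.593 reads per base in their fullest library, against 0.0410 at WT-only peaks. Their median reads per library were 156 to 186, and the classes were not matched for reads. Fewer reads vary more by counting alone, and the part of this in the ratios was not tested.

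The widths of the lists differed for every class. No WT peak was narrower than 166 bp, while the narrowest knockout peak spanned 73 bp and the median knockout peak 106 bp. Knockout-only peaks had a median width of 79 bp, and 82 of 115 (71.3%) were between 70 and 90 bp wide. Shared knockout peaks had a median width of 162 bp, and shared WT peaks 290 bp. Most knockout peaks lay wholly inside their WT partner, with a median of 100% of the knockout peak covered. The sources used here give no settings of the peak calls.

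At the 197 shared WT peaks, fold enrichment in the knockout list (the highest where several knockout peaks fell in 1 WT peak) was set beside that in the WT list. The lists were made separately, so a ratio between them is not a ratio of binding. All 149 low-fold peaks had the higher fold in the knockout, with a median knockout over WT ratio of 3.24 and a range from 1.52 to 5.99. Of the 48 peaks of at least 3-fold, 40 were higher in the knockout and 8 lower, with a median of 1.42 and a range from 0.614 to 2.73. The split at 3-fold was made on WT fold, the denominator of this ratio. No knockout peak had a fold below 2.42, so ratios above 1 at low WT fold were largely set by the split. Summits of a pair had a median distance of 15 bp, and 144 of 197 were within 50 bp. Pairs were chosen by overlap, which limits this distance. The 197 WT peaks formed 218 pairs, since 19 of them held more than 1 knockout peak.

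**Figure D2:**
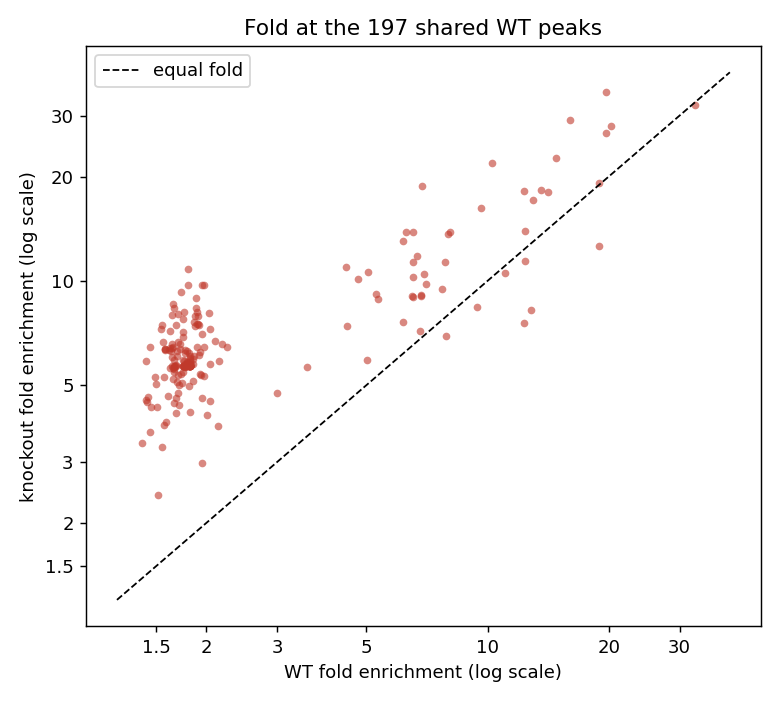
Each point is a shared WT peak, with WT fold enrichment on the x axis and knockout fold enrichment on the y axis (log scales). The 149 peaks below 3-fold all lie above the dashed line of equal fold, and 8 of the other 48 lie below it. Peaks were split by the value on the x axis, and no knockout peak had a fold below 2.42.

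The strongest shared peak lay 367880 bp from Arid1b, a subunit of the SWI/SNF chromatin remodelling complex, on chromosome 17 at 4626084 to 4626707. Its fold enrichment was 32.9 in WT and 32.1 in the knockout. It held 520 and 247 reads in LV and 258 and 453 in RV, and, scaled as in the authors' deposited table, 387 and 362 normalized reads in LV and 223 and 437 in RV. After that scaling the LV libraries lay close together, between the low and the high RV library. Next came peaks in Dpp9, a dipeptidyl peptidase (20.2 in WT and 28.0 in the knockout), near the predicted gene Gm8882 (19.7 and 35.1) and near Olfr854, an olfactory receptor (19.7 and 26.7). At the Dpp9 peak, on chromosome 17 at 56199911 to 56200206, reads numbered 87 and 54 in LV and 53 and 86 in RV. The peak near Bcl11a, a zinc-finger repressor, had 18.9 in WT and 19.2 in the knockout, and that inside Ano2, a calcium-activated chloride channel, had 18.9 and 12.6. Sulf1, a heparan sulfate sulfatase (15.99 and 29.1), Pla2r1, a phospholipase A2 receptor (14.8 and 22.6), Ndst4, a heparan sulfate sulfotransferase (14.2 and 18), and Nxph1, a secreted ligand of neurexins (13.5 and 18.3), completed the 10 strongest. Of these 10, 8 had the higher fold in the knockout list, and 2, at Dpp9 and Ano2, lay inside a gene.

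The lowest ratios belonged to peaks near Marcks, a substrate of protein kinase C (12.3 in WT and 7.55 in the knockout, ratio 0.614), in Hspb7 (12.8 and 8.23, ratio 0.640) and in Ano2 (ratio 0.670). The highest were those of Myo3a, an unconventional myosin (1.80 and 10.8, ratio 5.99), Slc25a54, a mitochondrial carrier (1.80 and 9.74, ratio 5.4), and Asxl3, a Polycomb-associated protein (1.73 and 9.31, ratio 5.38). The Myo3a peak, on chromosome 2 at 22587581 to 22588174, held 280 and 278 reads in LV and 283 and 295 in RV. Before scaling, the highest and the lowest library there differed by 17 reads.

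Dnaja2, a J-domain co-chaperone of Hsp70, held 4 of the 48 shared peaks of at least 3-fold (chromosome 8, 85537633 to 85555361, minus strand). It had 6 WT peaks with fold enrichments from 4.72 to 9.42 and 5 knockout peaks from 5.39 to 10.2, spread from 2028 to 16072 bp after the gene's start. The strongest WT peak, at 85553173 to 85553462, had a fold of 9.42 and paired with a knockout peak of 8.43. In the LV and RV libraries it held 3, 0, 1 and 3 reads. No library held more than 7 reads at any of the 6 peaks, so the whole-ventricle peaks of both genotypes had few reads in the 4 libraries that the classes did not use. Among peaks of at least 5-fold, a mean of LV and RV under 5 normalized reads was found at 6 of 44 shared peaks (13.6%, 6.40 to 26.7%) and at 92 of 4545 WT-only peaks (2.02%). Beside 4 at Dnaja2, the 6 lay near Tlr4, a receptor of innate immunity, and in Cbfb, the binding partner of RUNX factors.

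Hspb7 had 4 WT peaks (chromosome 4, gene at 141420779 to 141425310, plus strand), of which 2 were shared. The wide peak over the promoter shown above, at 141419680 to 141422066, had a fold of 12.8 and held 218 and 92 reads in LV and 137 and 104 in RV. Its knockout partner covered 182 bp, or 7.62% of it, with a fold of 8.23, and the summits were 256 bp apart. The second shared peak, at 141423804 to 141424147, had a fold of 7.87 in WT and 6.92 in the knockout. Knockout summits in Hspb7 thus lay inside the gene, 1115 and 3247 bp after its start.

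**Figure D3:**
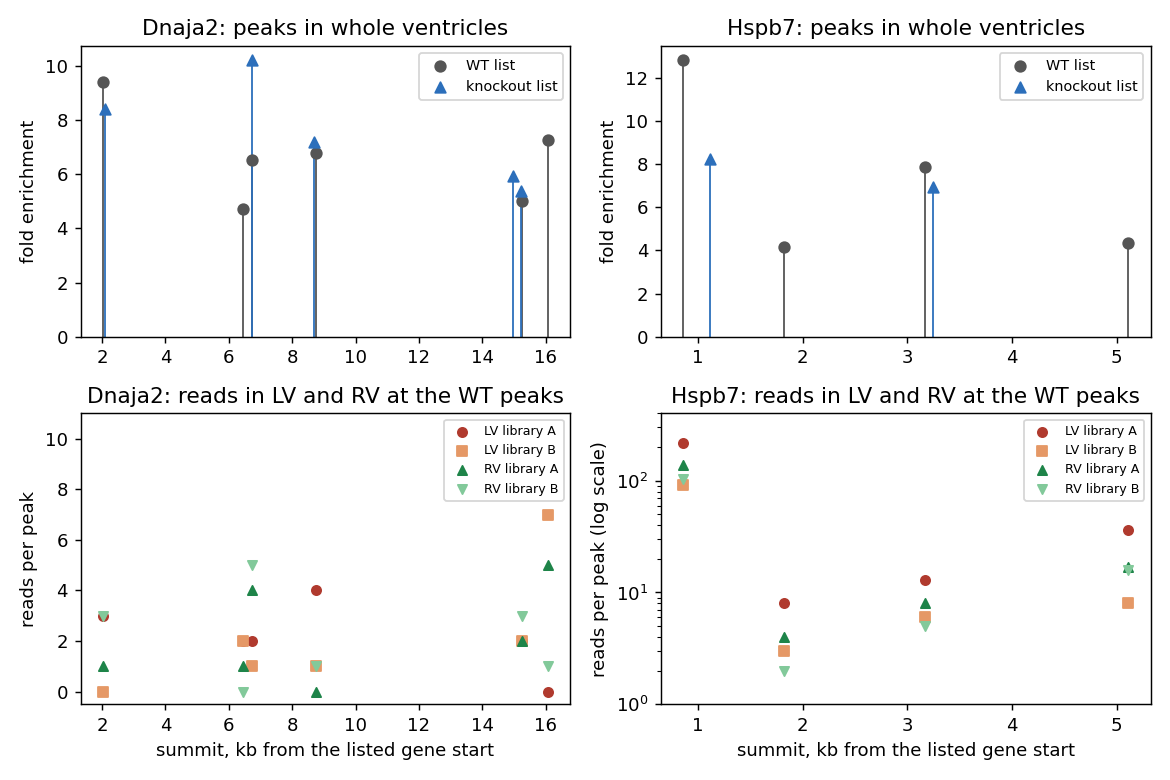
Peaks of Dnaja2 (left) and Hspb7 (right) by the distance of their summits from the listed gene start, with fold enrichment in the WT and knockout lists (top) and reads per WT peak in the 4 LV and RV libraries (bottom, log scale for Hspb7). Dnaja2 has up to 7 reads per library, while the first Hspb7 peak has 92 to 218.

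Chromosome 9 carried 46 of the 197 shared WT peaks (23.4%), against 5.43% of WT-only peaks. Of these, 39 lay in a run between 3000559 and 3037906, 297474 bp or more from the nearest gene Alkbh8, a tRNA methyltransferase. All 39 WT peaks of the run were shared, with a median fold of 1.78 and LV values from 166 to 1946. The run held 49 knockout peaks, of which 5 were knockout only. Another 4 runs of at least 3 shared peaks with gaps of up to 10000 bp lay nearest to Sfi1, a centrin-binding protein (4 peaks), Dnaja2 (4), Vmn1r238, a vomeronasal receptor (3), and Tyrp1, an enzyme of melanin synthesis (3). Counted as sites, with neighbours within that gap joined, the 197 peaks came to 140 sites. Without the run of chromosome 9, 7 shared peaks were left on that chromosome, and 38.0% of the shared peaks lay over 50000 bp from a gene in place of 50.3%.

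Mouse autosomes and chromosome X have the centromere at 1 end, so that the assembled sequence starts beside it. Between 3000000 and 3500000 bp of their chromosome lay 27.4% of shared WT peaks (54 of 197, 40 of them on chromosome 9), 13.0% of knockout-only peaks (15 of 115) and 0.322% of WT-only peaks (56 of 17390). All 54 shared peaks there were below 3-fold, and 0 of the 48 stronger ones lay there. Chromosome Y was left out of these counts. Chromosome Y held 4 WT peaks, all shared, and 19 knockout peaks, of which 14 were knockout only. That is 12.2% of the knockout-only class. Embryo sex was not given in the sources used here, and its part in the count was not tested.

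**Figure D4:**
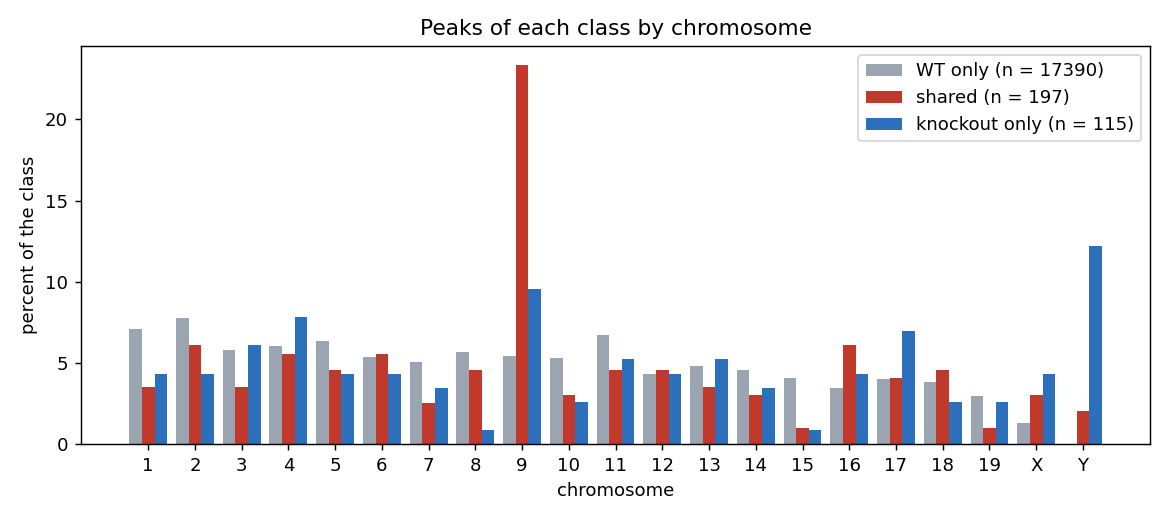
Bars give the percent of the peaks of each class on each chromosome for 17390 WT-only, 197 shared WT and 115 knockout-only peaks. Shared peaks stand out on chromosome 9 (23.4%) and knockout-only peaks on chromosome Y (12.2%).

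The classes also differed in their place relative to protein-coding genes. WT-only summits lay inside a gene in 59.3% of cases and over 50000 bp from one in 15.2%. Low-fold shared summits lay inside a gene in 19.5% and over 50000 bp away in 57.0% (49.0 to 64.7%). Shared peaks of at least 3-fold were between these, with 52.1% inside and 29.2% far away (18.2 to 43.2%). Knockout-only summits lay inside in 31.3% and far away in 41.7% (33.1 to 50.9%). The far low-fold shared peaks include all 39 of the run at the start of chromosome 9, which the interval counts as separate peaks. Without this run the far share of all shared WT peaks fell to 38.0%. The low-fold class was not recounted without it, so its distance from the knockout-only share rests in part on 1 locus. Where the nearest gene has a listed start, a summit within 1000 bp of a listed start was found in 2433 of 13500 WT-only peaks (18.02%), 3 of 158 shared WT peaks (1.90%, 0.648 to 5.43%) and 1 of 91 knockout-only peaks (1.10%, 0.194 to 5.96%).

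**Figure D5:**
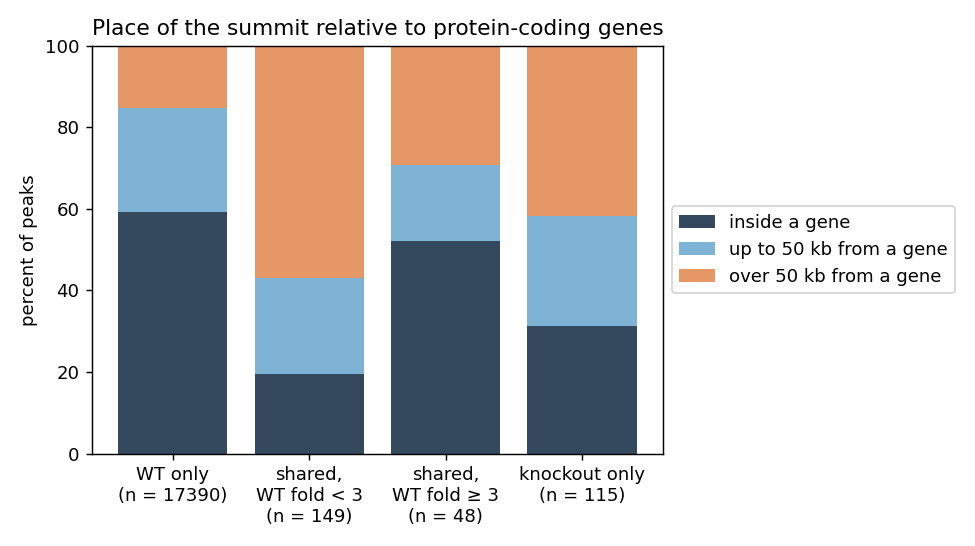
Stacked bars give the percent of peak summits inside a protein-coding gene, up to 50000 bp from one and further away, for 4 classes. Summits over 50000 bp from a gene make up 15.2% of WT-only, 57.0% of low-fold shared, 29.2% of stronger shared and 41.7% of knockout-only peaks.

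Knockout-only peaks had a median fold enrichment of 6.05 and a maximum of 15.9. The strongest had as nearest genes Rfc3, a clamp loader subunit of DNA replication (15.9), Fggy, a carbohydrate kinase (14.2), Diaph3, a formin (10.1), Bag3, a co-chaperone of heart and skeletal muscle (9.77), Tyrp1 (9.58), Nedd4l, a ubiquitin ligase (9.21), Ric8b, a chaperone of G protein alpha subunits (9.13), and Pex2, a peroxisomal ubiquitin ligase (9.08). Only those of Bag3 and Nedd4l were inside the gene. The Bag3 peak, on chromosome 7 at 128545992 to 128546229, lay 22590 bp after the gene's start. It was 238 bp wide, where the other 7 were 73 to 107 bp. Bag3 had 3 WT peaks with folds of 2.83 to 4.96, the nearest 2832 bp away from the knockout peak. Of the 115 knockout-only peaks, 22 lay within 1000 bp of a WT peak, 28 within 10000 bp of a shared peak and 62 over 50000 bp from any WT peak. A run of 4 near Zfp825, a zinc-finger gene on chromosome 13, had no WT peak in its span. Values in LV and RV exist for WT peaks alone, so knockout-only peaks could not be compared with them.

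Near the limit of 1 bp, 2 WT-only peaks lay within 500 bp of a knockout peak and 10 within 1000 bp. The closest was 81 bp away, in Tmem267 (fold 1.42 in WT and 6.44 in the knockout), and the next 186 bp away, in Dnaja2 (4.72 and 10.2). Inside the limit, the smallest overlaps were 53 bp in Smo, the Hedgehog signal transducer (1.41 and 5.87), and 58 bp near Sfi1 (1.43 and 4.48).

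Gene content was read by giving each summit its nearest protein-coding gene. Of 21887 genes, 7069 (32.3%) were nearest to a WT-only peak, 131 (0.599%) to a shared peak and 89 (0.407%) to a knockout-only peak. Among 249 genes in 14 lists of heart muscle, signalling and marker genes, 172 had a WT-only peak, 2 a shared peak and 0 a knockout-only peak. Of the 131 genes with a shared peak, 72 also had a WT-only peak.

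Genes of the heart muscle cell carried WT-only peaks in most cases. In the sarcomere list 31 of 32 genes did, beside 32.3% of all genes, led by Myh7, the slow myosin heavy chain (23.5), Ankrd1 (21.7), Myl2 (21.0) and Ttn, titin (14.7). The 161 WT peaks of this list included 0 shared ones, beside 1.12% of all WT peaks. Calcium handling and ion channel genes had a WT-only peak in 18 of 19 cases, led by Ryr2 (25.2), Atp2a2, the calcium pump of the sarcoplasmic reticulum (22.8), Cacna1c (21.7) and Jph2, which couples both calcium channels (17.2). At the Atp2a2 peak, on chromosome 5 at 122520532 to 122521518, reads numbered 175 and 60 in LV and 104 in each RV library. None of the 101 peaks of this list was shared.

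In the list of cardiac transcription factors 23 of 24 genes had a WT-only peak, led by Hopx, a homeodomain cofactor (16.6), Tbx20, of the T-box family (14.6), Myocd, the SRF coactivator myocardin (14.5), and Tead1, the DNA-binding partner of YAP (12.4). In the trabecular list, the inner muscle layer, 14 of 16 did, led by Irx2, a homeobox factor (15.2), Gja5, a gap junction protein (13.7), Tbx3, a T-box repressor (13.5), and Nppb, a natriuretic peptide (12.0). In the compact myocardium list 11 of 12 did, with Prdm16, Tbx20, Hey2, a bHLH repressor (12.2), and Fstl4, a secreted follistatin-like protein (10.4). For TGF-beta and BMP signalling the count was 22 of 25, with the ligand Tgfb2 (16.8), the coreceptor Tgfbr3 (15.7) and the ligands Bmp7 (12.4) and Bmp10 (10.7). All 4 counts stand beside 32.3% of all genes. Of these 4 lists, 1 gene had a shared peak (beside 0.599% of all genes), Tbx20, which is in the compact myocardium and the transcription factor lists.

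The shared peak of Tbx20 lay inside the gene on chromosome 9 at 24745028 to 24745328, 29101 bp after its start, with a fold of 1.75 in WT and 6.87 in the knockout. It held 128 and 127 reads in LV and 127 and 130 in RV. The strongest of the 9 WT-only peaks of Tbx20, 114134 bp outside the gene, held 87 and 23 reads in LV and 36 and 38 in RV. Unscaled reads of the shared peak differed by at most 3 between libraries, while LV library A stood above the other libraries at the WT-only one. The authors' scaling gives each read 0.744 and 1.47 normalized reads in LV libraries A and B. In RV libraries A and B it gives 0.866 and 0.965, so equal reads are not equal normalized reads.

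Genes of PRDM16 and its known partners had a WT-only peak in 15 of 25 cases and genes of brown fat and fatty acid oxidation in 14 of 21. Their leading members beside Prdm16 were Ppargc1b (13.1) and Ppargc1a (9.11), coactivators of mitochondrial genes, Prdm1, a related repressor (9.21), Esrrg, an orphan nuclear receptor (8.65), Ebf2, a brown fat factor (7.82), and Ctbp1, a corepressor (6.57). The share of all genes with a WT-only peak was 32.3%. None of these lists' 73 and 66 WT peaks was shared, beside 1.12% of all WT peaks.

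Markers of other cell types had WT-only peaks less evenly. The counts were 11 of 15 for endothelium and endocardium (Pecam1, an endothelial adhesion protein, 9.11), 5 of 12 for epicardium (Tbx18, a T-box factor, 11.8) and 6 of 12 for fibroblasts and valve mesenchyme (Fbln2, a matrix protein, 7.52). They were 4 of 16 for erythroid and immune genes (Ptprc, the leukocyte phosphatase CD45, 6.27), 7 of 16 for neuronal genes (Syt1, a synaptic vesicle protein, 8.37) and 1 of 14 for hepatocyte genes (Apob, an apolipoprotein, 4.2). The share over all genes was 32.3%. These are counts of binding, and expression was not measured. The single shared peak of these lists was nearest to Stmn2, a neuronal tubulin-binding protein, at 264128 bp. It had a fold of 1.67 and held 72 and 66 reads in LV and 66 and 85 in RV.

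Olfactory and vomeronasal receptor genes, large families of chemosensory receptors, had few WT-only peaks. Of 1478 genes, 17 (1.15%) had a WT-only peak, beside 32.3% of all genes. A shared peak was found for 5 (0.338%) and a knockout-only peak for 4 (0.271%), beside 0.599% and 0.407% of all genes. These 2 counts are small, and their difference from all genes was not tested. Of the 27 WT peaks nearest to these genes, 9 (33.3%) were shared, beside 1.12% of all WT peaks, in a list with few WT-only peaks. The 5 genes were Olfr161, Olfr854, Vmn1r2, Vmn1r238 and Vmn2r87, and those with knockout-only peaks were Olfr161, Vmn1r2, Vmn1r238 and Vmn2r129. Several of these peaks lay in the same run, as with the 3 shared peaks nearest to Vmn1r238, 116110 bp or more from it. Of the 9 shared peaks, only that of Olfr854 lay near its gene, at 8107 bp. The others lay from 81366 bp (Vmn1r2) to 476055 bp (Olfr161) away. Shared peaks nearest to Olfr161, Vmn1r2 and Vmn1r238 were all in the interval at the start of chromosomes that was counted above. The 33.3% thus rests mostly on distant peaks, and a link of shared peaks with receptor genes was not tested. The strongest WT-only peak of the list was inside Olfr607 (10.5).

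In the authors' deposited table of LV against RV, shared peaks had the higher value in LV in 173 of 197 cases (87.8%), against 50.2% of all WT peaks. The median log2 RV over LV was -0.14 at shared peaks and 0.00 at WT-only peaks. None of the 197 had a p under 0.05, beside 0.483% of all WT peaks, and the smallest p was 0.22. No peak of the whole table had an adjusted p under 0.05 (0%). The scaling in that table gives 1 read in each library a value of 1.10 in LV and 0.915 in RV, so that equal reads in all 4 libraries give an LV value 1.21 times the RV value.

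As a share of all reads within WT peaks, reads in shared peaks came to 19.0% and 30.6% in LV libraries A and B and to 20.01% and 26.1% in RV libraries A and B. The ventricles overlapped, since the lowest and the highest share were both from LV. The means were 24.8% ± 8.15 (SD, n = 2) in LV and 23.0% ± 4.28 (SD, n = 2) in RV, a difference smaller than the spread between libraries (exact permutation test, two-sided, p = 1.0, where 2 against 2 libraries cannot go below 0.333). The run at the start of chromosome 9 alone took 10.7% and 17.0% of the reads in LV and 11.1% and 15.04% in RV. Shared peaks of at least 3-fold took 0.777% and 0.736% in LV and 0.509% and 0.844% in RV. Nearly all reads in shared peaks thus fell in peaks of low fold enrichment.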

How the data were processed

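PRDM16 ChIP-seq of 2 WT and 1 Prdm16cKO whole-ventricle libraries was compared through 1 deposited peak list per genotype. Per the submitters' processing notes the tools were MACS2 2.1.1.20160309, BWA 0.7.12-r1039, DESeq2 and HOMER, with GRCm38 and mm10 as builds and no roles stated. The sources used here do not give how replicates and inputs entered the lists. The deposited lists hold the fold enrichment (a ratio of ChIP to background) and the −log10 q of each peak. The table of both ventricles holds, per the file headers, a signal for each ventricle, a log2 ratio and p-values, and its 17587 regions are the WT peaks. Each deposited LV and RV signal value equalled 0.5 plus a weighted sum of whole reads of its libraries, which gave 1 solution in whole reads at 100% of regions. Reads within WT peaks numbered 330443 (LV library A), 184244 (LV B), 281797 (RV A) and 267808 (RV B), with 6 to 10 reads at the median peak.

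Overlaps were computed with Python 3.11.15, numpy 2.4.6 and pandas 2.3.3 and, on simulated intervals, gave the 885 pairs that bedtools 2.31.1 gave. The recovery of reads was tested on simulated data and returned 100% of 5000 regions. Summits were assigned to the nearest of 21887 protein-coding genes of a RefSeq table for GRCm38. Listed starts cover 17492 of these genes and none on chromosome 18, so distances from a start are given only where one is listed and the share near a start is only over peaks whose nearest gene has one. All 259 entries of the lists, with some genes in more than 1 list, were found by symbol or synonym. The test between ventricles is an exact permutation test (scipy 1.17.1) and other comparisons are descriptions. Genes named are Prdm16, the 8 WT-only, 10 shared and 8 knockout-only peaks of highest fold, listed genes with a shared or knockout-only peak, up to 4 genes per list by their strongest WT-only peak (fewer are printed for marker lists), genes at runs of at least 3 shared peaks and the 3 highest and lowest ratios. Members, lists and rules were chosen with earlier results of these data known. Alternatives were other overlap rules, minimums of −log10 q and fold of 5, other gene assignments, leaving out the start of chromosome 9 and leaving out each LV or RV library. Figures were drawn with matplotlib 3.10.9.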

Additional observations from a re-analysis of the deposited data

How the results depend on the processing

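No paired analysis was possible because each genotype has 1 list and the knockout has 1 library. Of 54 values under alternatives, 30 stayed within 1.5 times (counts) or within the interval (medians and shares) of those reported or kept their direction, 22 moved and 2 reversed. With a reciprocal overlap of at least 0.5 of each peak's width, for which knockout peaks are often too narrow, 105 WT peaks were shared and 225 knockout peaks were knockout only. At a fold of at least 5 in both lists there were 44 shared, 4545 WT-only and 215 knockout-only peaks. This limit removes WT partners of low fold, so a knockout-only peak here can still overlap a weaker WT peak. The median fold of shared WT peaks was 1.88 without the start of chromosome 9 and 1.76 with reciprocal overlap, and that of WT-only peaks 4.58 at a −log10 q of at least 5. Median widths were 278.5 and 356 bp for shared WT peaks without the start of chromosome 9 and with reciprocal overlap, and 86 bp for knockout-only peaks with reciprocal overlap. The median knockout over WT ratio was 2.99 and 3.23 under these 2 settings. Over 50000 bp from a gene lay 62.9% of shared WT peaks with reciprocal overlap and 38.0% without the start of chromosome 9, where 7 shared peaks remained on that chromosome. Median values of shared peaks in the authors' deposited table were 278 in LV and 257 in RV with reciprocal overlap, and 76.4 and 70.9 without the start of chromosome 9. With the nearest gene within 10000 bp only, 1 listed gene had a shared peak (Tbx20). With any gene within 50000 bp, 3 had a shared peak (Gad2, Myom1, Tbx20) and 2 a knockout-only peak (Afp, Gad2). The LV minus RV difference in the share of reads in shared peaks, 1.76 percentage points, ranged from -4.0 to 7.52 when 1 library was left out, and was below 0 without LV library B (-4.0) or RV library A (-1.27). A lone library then stands for its ventricle, with no test. Depth limits the LV and RV values to 6 to 10 reads at the median peak.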

Other observations

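Med15, a subunit of the Mediator complex, was chosen after its values were seen. It had 11 WT peaks, all WT only, inside the gene on chromosome 16 (17651208 to 17722947), with folds from 3.70 to 9.61 in whole ventricles. The second strongest, at 17673026 to 17673448, had a fold of 9.54 and held 1 and 2 reads in LV and 0 and 4 in RV. Other Med15 peaks held more. The strongest had 3 and 4 reads in LV and 5 and 10 in RV. The peak at 17656287 to 17656696, with a fold of 4.55, had 10 and 6 in LV and 14 and 16 in RV. Of the 92 WT-only peaks of at least 5-fold with a mean under 5 normalized reads, 5 were in Med15, the most of any gene in that class, and of the 6 shared ones 4 were in Dnaja2. Both genes thus had some peaks in the whole-ventricle WT list with few reads in the LV and RV libraries, with knockout peaks in Dnaja2 and none in Med15.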
